A study of Mus musculus with 2 samples.

Results

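The glutathione and peroxide defence enzymes were taken as the genes whose annotated symbol places them among the glutathione transferases (Gsta, Gstm, Gstp, Gstt, Gsto, Gstk and Gstz, and the membrane-bound Mgst), the glutathione peroxidases (Gpx, leaving out the epididymal Gpx5), the peroxiredoxins (Prdx), the superoxide dismutases (Sod), the thioredoxin family (every symbol beginning Txn) and the enzymes that make and reduce glutathione (Gclc, Gclm, Gss and Gsr). The rule read symbols alone and no values, but it was set with earlier results of these data known. The rule found 53 genes, carried by 92 probe sets, among the 12394 genes named singly on the array. Of these 53, 45 reached an intensity of 32 (5 on the log2 scale) on at least 1 array, and 8 stayed below this floor on both: Gpx2, Gpx7, Gss, Gstm3, Gstp3, Mgst2, Txndc11 and Txnrd2. A further 6 probe sets that name a gene of this kind together with another gene, those of Prdx1 among them, were not members.

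The tissue was epididymal fat, the white adipose pad beside the epididymis and testis, from male mice on standard chow. The knockout group lacked the nuclear receptor PPARβ/δ (gene Ppard), was on a mixed Sv129/C57BL/6 background and was 12 weeks old. The wild-type group was 12 to 16 weeks old. The design text calls it littermates, while its label gives the strain 129S1/SvJae. Neither strain nor age can therefore be told apart fully from genotype. The RNA of each genotype came from 5 animals, mixed and put on 1 array, so each gene has 1 wild-type and 1 knockout value, no spread between animals exists, and no difference below has a test or a p-value. The allele and the tissues in which Ppard was deleted are not given in the sources used here.

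Cells meet superoxide and hydrogen peroxide as by-products of respiration and of oxidases. Superoxide dismutases turn superoxide into hydrogen peroxide, which catalase, glutathione peroxidases and peroxiredoxins reduce to water. Glutathione reductase and the thioredoxin reductases restore the spent glutathione and thioredoxin with NADPH, and glutathione transferases join glutathione to electrophiles such as the aldehydes formed from oxidised lipid. In fat these enzymes limit peroxide and lipid aldehydes, and a separate set of thioredoxin and selenium enzymes serves the building of sperm.

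The 2 arrays were close in scale, with a median intensity of 22.3 in wild-type and 23.0 in knockout fat. Ppard was below the floor on both, at 6.58 and 6.27, and gives no check of the genotype labels. Adipocyte markers were bright in both pools (Adipoq 10259 and 8030, Fabp4 15004 and 13018), yet 12 of the 13 above the floor were lower in the knockout pool, with a median log2 difference of -1.16. All 27 testis germ cell markers with a probe set were higher in the knockout pool, with a median of 5.10 (4.53 with dim values set to the floor); 12 of them were below the floor in wild-type fat, while each was above it in knockout fat, and their summed intensity was 4140 in wild-type and 83299 in knockout fat. Epididymis markers had a median of 0.52 (9 of 10 above the floor higher) and a summed intensity of 50945 and 60424. Macrophage markers above the floor were lower at 15 of 15, with a median of -0.78 (-0.72 with dim values set to the floor) and a summed intensity of 7950 and 4924. The summed adipocyte markers were at 65633 and 42470, and the part of any cell type in the differences of the defence genes was not tested. In pooled tissue RNA, fewer cells of a type and less RNA per cell cannot be told apart.

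Over the 45 defence genes the median log2 difference, knockout minus wild type, was -0.30, against -0.08 over all 6533 genes above the floor. The knockout value was the lower for 31 members (68.9%), where 55.5% of all genes were lower. With the trend of differences with intensity removed, the split of members was 26 lower and 19 higher (57.8% lower), against 47.9% of all genes. That adjustment moved the median of all genes by over 0.1, to 0.03, and the members then lay 0.22 below it, as against 0.21 in the values as deposited. Passing the floor rested on 1 array for 3 members (Gpx6, Gsta2 and Gstm4), and the median was -0.26 with their dimmer values set to the floor. With no floor, all 53 genes gave 35 lower and 18 higher, with a median of -0.27.

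Large differences were few and of equal number in each direction. Higher by 2-fold or more were 4 members, Txndc8, Txnrd3, Gstm5 and Prdx4 (8.89% of 45, with 13.7% among all genes). Lower by 2-fold or more were 4 members as well, Sod3, Mgst3, Gstt1 and Gstz1 (8.89%, with 9.14% among all genes). Both shares were near or below those of the array as a whole, so the count of 2-fold differences does not set the defence genes apart.

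**Figure D1:**
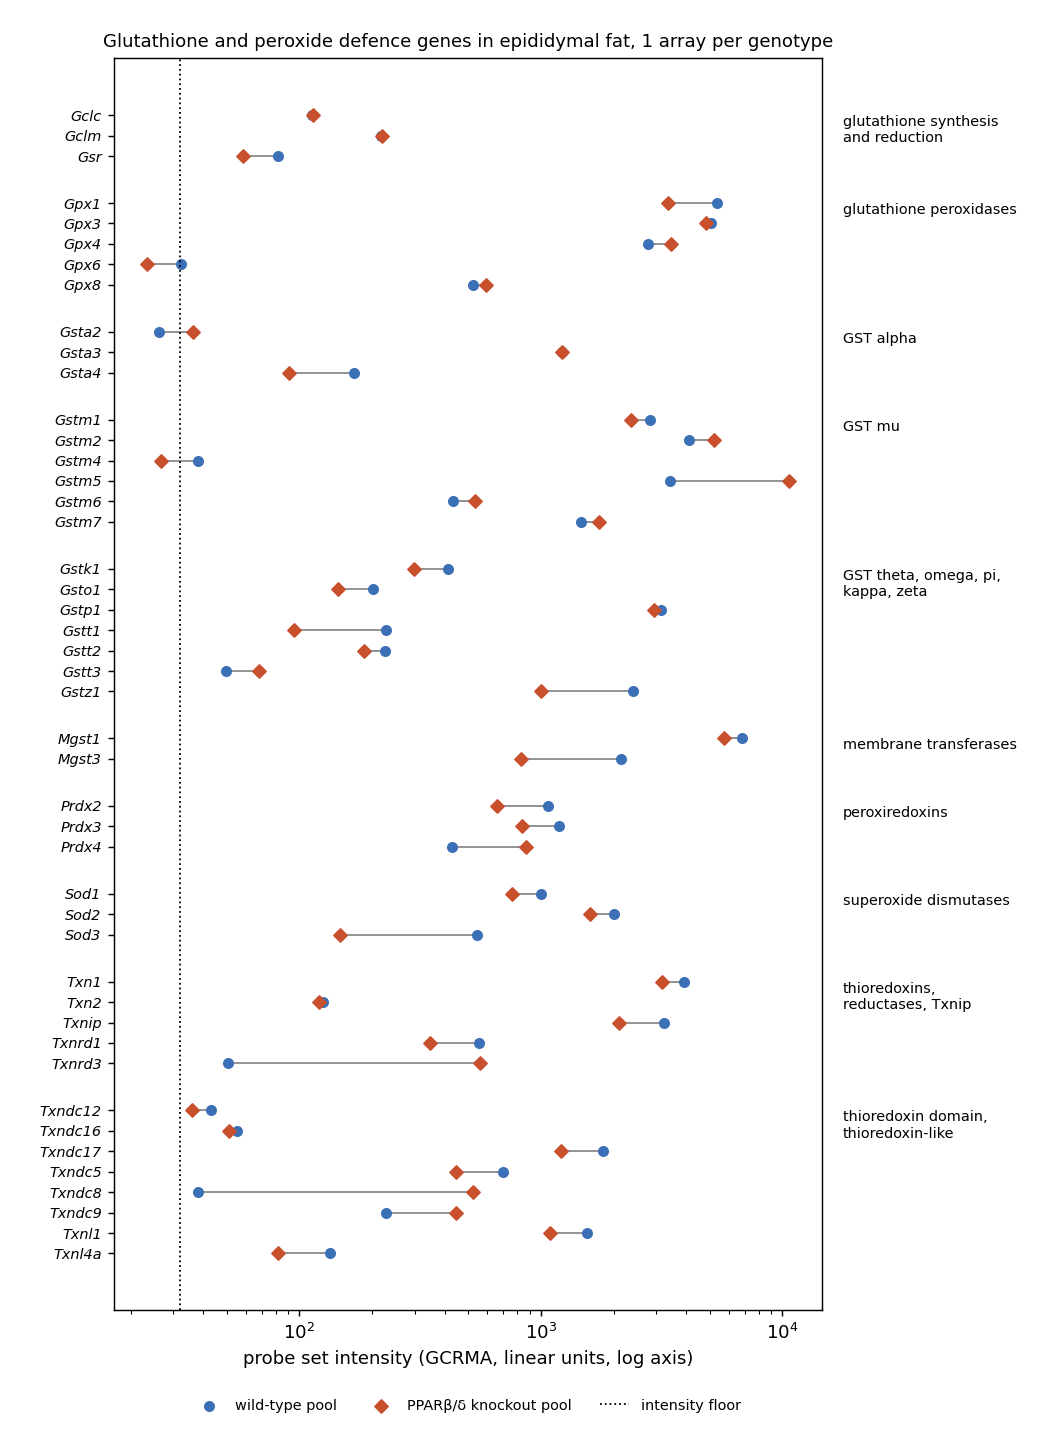
Probe set intensity (log axis) of the 45 defence genes above the floor, grouped by role, with the wild-type pool as blue circles, the knockout pool as red diamonds and the floor of 32 as a dotted line; each point is 1 array and there are no error bars. Txndc8 and Txnrd3 have the widest gaps, from 38.1 to 521 and from 50.8 to 557, and Sod3 the widest gap to the lower side, from 543 to 148.

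The enzymes that commit cells to glutathione synthesis were nearly level. Gclc, the catalytic subunit of glutamate-cysteine ligase, was at 113 in wild-type and 114 in knockout fat. Gclm, its modifier subunit, was at 217 and 220. A further probe set of Gclc was at 36.9 on both arrays, so both subunits differed by 0.02 or less on the log2 scale. Gsr, which reduces oxidised glutathione, was at 81.3 and 58.3, a log2 difference of -0.48, and -0.10 at its further probe set. Gss, which completes glutathione, was below the floor.

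Glutathione peroxidases differed among themselves. Gpx1, the abundant cytosolic enzyme, was at 5366 in wild-type and 3354 in knockout fat, 1.60-fold lower. Gpx3, the secreted plasma enzyme that adipocytes also make, was at 5067 and 4843, a difference of -0.07 that became 0.02 with centring on the median or with the intensity trend removed. Gpx4, which reduces lipid peroxides within membranes and is also built into the sperm midpiece, was at 2787 and 3474, and its probe sets differed by 0.32 and 0.30. Gpx8, an enzyme of the endoplasmic reticulum, was at 523 and 594. Gpx6 straddled the floor at 32.3 and 23.3, and its fold is at least 1.01 only.

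The soluble glutathione transferases were read by class; differences between classes were not tested. Of the 6 mu genes above the floor, 4 were higher in the knockout pool and the class median was 0.27 (0.25 to 0.41 over the alternatives). Gstm5, the mu enzyme best known from testis and brain, was at 3429 in wild-type and 10710 in knockout fat, 3.12-fold higher, and it was the sole mu gene past 2-fold. Gstm2 was at 4101 and 5201, Gstm7 at 1472 and 1748 and Gstm6 at 435 and 531, each 1.19 to 1.27-fold higher. Gstm1 went the other way at 2824 and 2359, and its 3 probe sets above the floor differed by -0.35 to -0.24. Gstm4 was at 38.1 and 26.7, a fold of at least 1.19. The mu genes are close paralogs on chromosome 3, so a probe set may read a neighbour.

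Of the 7 genes of the theta, omega, pi, kappa and zeta classes, 6 were lower in the knockout pool, with a median of -0.47 (-0.47 to -0.32 over the alternatives). Gstz1, the maleylacetoacetate isomerase of tyrosine breakdown, was at 2404 in wild-type and 1001 in knockout fat, 2.40-fold lower. Gstt1, a theta transferase, was at 228 and 94.7, also 2.40-fold lower. The related Gstt2 was at 227 and 185, and Gstt3 was the class exception at 49.8 and 68.1, 1.37-fold higher. Gstp1, the pi transferase, was at 3149 and 2946, a difference of -0.10 that was 0.02 with the intensity trend removed. Gsto1 and Gstk1 were 1.39-fold lower each.

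Among the alpha genes, Gsta4 turns over the lipid aldehyde 4-hydroxynonenal and is the alpha enzyme most often described in fat. It was at 168 in wild-type and 90.3 in knockout fat, 1.86-fold lower. Gsta3 was level at 1222 and 1219. Gsta2 was at 26.3, below the floor, and 36.1, a fold of at least 1.13. With 3 genes that differ this much, the class median (-0.00) ranged from -0.45 to 0.15 over the alternatives and carries no direction. Of the membrane transferases, Mgst1, of the endoplasmic reticulum and outer mitochondrial membrane, was at 6806 and 5732, whereas Mgst3, a related enzyme that also acts on lipid peroxides, was at 2152 and 827, 2.60-fold lower.

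The 3 peroxiredoxins among the members held both directions. Prdx1 was not a member, and the other peroxiredoxins were not read. Prdx2, a cytosolic enzyme that is also abundant in red blood cells, was at 1067 in wild-type and 660 in knockout fat, 1.62-fold lower. The erythroid markers were lower in the same pool (3 of 3 that passed the floor, with Hba-a1 below it on both arrays), but all 3 were below the floor in knockout fat, so their folds are bounds, at least 1.40 (Slc4a1), 1.61 (Hbb-b2) and 4.83 (Alas2). Their median was -1.33 as deposited and -0.69 with dim values set to the floor, where 1 in place of 3 was at least 2-fold lower, and their part in the Prdx2 difference was not tested. Prdx3, the mitochondrial enzyme, was at 1192 and 836, 1.43-fold lower. Prdx4, the enzyme of the endoplasmic reticulum and secretory path, was at 428 and 867, 2.03-fold higher. Its further probe set above the floor was at 144 and 203, and the mean of both gave a log2 difference of 0.75, so Prdx4 did not reach 2-fold in that setting.

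All 3 superoxide dismutases were lower at the probe set that represents them, by different amounts and with unequal support. Sod3, the extracellular enzyme bound to matrix and vessel walls, was at 543 in wild-type and 148 in knockout fat, 3.67-fold lower, and had the lowest difference of the 45 members. Its further probe set was at 45.3 and, below the floor, 24.6, at least 1.41-fold lower. Sod1, the cytosolic copper-zinc enzyme, was at 1005 and 757 at its brighter probe set but at 26.7, below the floor, and 48.0 at a dim one, a log2 difference of at least 0.58; the mean of both as deposited differed by 0.22 in place of -0.41. Sod2, the mitochondrial manganese enzyme, was at 2012 and 1598, while another bright probe set was at 1078 and 1246. The direction of Sod1 and Sod2 is therefore not settled by these arrays. Of 10 endothelial markers above the floor, 9 were lower in the same pool (median -0.95, summed intensity 1296 and 674), as were 7 of 9 fibroblast markers (median -0.57, 19651 and 13552), and their part in the Sod3 difference was not tested.

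The thioredoxin reductases went in opposite directions. Txnrd1, the cytosolic reductase, was at 553 in wild-type and 346 in knockout fat, 1.60-fold lower. Txnrd3, the thioredoxin-glutathione reductase known from testis, was at 50.8 and 557, higher by 3.46 on the log2 scale. Its 2 further probe sets, at 8.58 and 71.2 and at 15.3 and 115, were below the floor in wild-type fat and give bounds only, at least 2.23-fold and at least 3.61-fold higher. The size of the Txnrd3 difference thus rests on 1 probe set. Txn1, the cytosolic thioredoxin, was at 3903 and 3177, and Txn2, its mitochondrial counterpart, at 125 and 120, a difference of -0.05 that turned to 0.03 on centring and 0.12 with the trend removed. Txnip, which binds and inhibits thioredoxin and follows glucose supply, was at 3241 and 2108, with differences of -0.62 and -0.99 at its 2 probe sets.

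Of the 8 thioredoxin domain and thioredoxin-like genes, 6 were lower. Txndc8, a thioredoxin of spermatids, was at 38.1 in wild-type and 521 in knockout fat, 13.7-fold higher, the highest difference of all members. Txndc9, a phosducin-like cytosolic protein, was at 228 and 445, 1.96-fold higher, though its further probe set differed by 0.50 on the log2 scale. Txndc17 (1816 and 1207), Txnl1 (1546 and 1090), Txndc5, a disulphide isomerase of the endoplasmic reticulum (700 and 445), and Txnl4a, a spliceosome subunit (134 and 81.6), were 1.42 to 1.65-fold lower at the probe sets that represent them. Further probe sets of Txndc17 differed less, by -0.35 and -0.13 on the log2 scale. Those of Txnl1 differed by -0.53 and -0.21, and that of Txndc5 by -0.70. Txndc16 was at 54.9 and 51.1 and Txndc12 at 43.1 and 35.9.

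**Figure D2:**
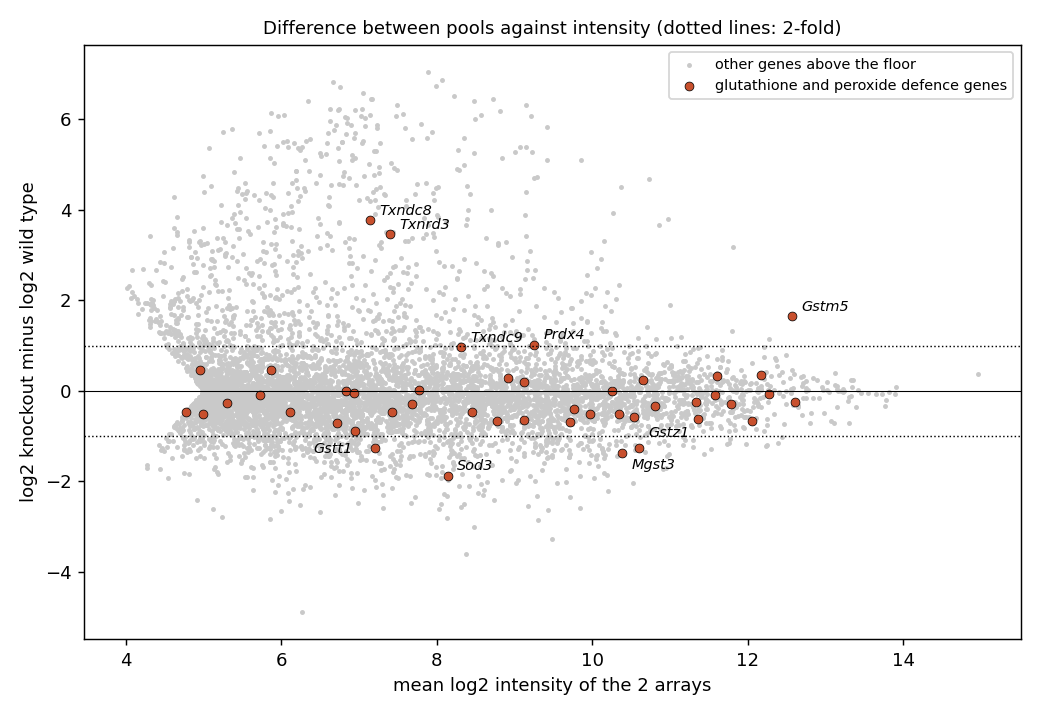
Log2 difference (knockout minus wild type) against mean log2 intensity for 6533 genes above the floor, each point 1 gene; defence genes are red, and those beyond or close to 2-fold (dotted lines) are named. Most red points lie between the dotted lines and below 0, and Txndc8 (3.77), Txnrd3 (3.46) and Gstm5 (1.64) lie above.

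Of the 4 members higher by 2-fold or more, 3 were in a list of members known from sperm and testis. Whether Prdx4 or other members outside that list are also expressed in germ cells was not examined. The list was drawn with earlier results of these data known, so its direction is a description and not a test. It held Txndc8, Txnrd3, Gstm5 and Gpx4 with a probe set. Of these, 4 of 4 were higher, 3 by 2-fold or more, and their median was 2.55. These members were measured in the pool where the germ cell markers differed by a median of 5.10, from Sycp3 at 2.25 to Meig1 at 6.45 among those above the floor on both arrays. The part of germ cell RNA in the differences of these members was not tested. Without the 4 members, 31 of the remaining 41 were lower, the median was -0.33, 1 (Prdx4) was at least 2-fold higher and 4 were at least 2-fold lower. That removal was chosen after the values were seen. Since all 4 were higher, it could only raise the share of lower members.

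Agreement between probe sets gives part of the technical error. Of the 16 members with several probe sets above the floor, 14 had the same direction in all of them (1557 of 2137 genes, or 72.9%, over the array); for 4 of the 16 (Gsto1, Sod1, Sod3 and Txnrd3) a probe set gives only a bound. Within a gene, the differences of its probe sets had an SD whose median was 0.25 over these members and over all such genes alike, and 0.26 and 0.24 with dim values set to the floor. Differences of 0.25 or less, found for 10 of the 45 members and 29.5% of all genes above the floor, are thus within the usual disagreement of probe sets. The 90th percentile of that SD over all such genes was 0.75, so a larger difference is not thereby beyond the technical error.

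**Figure D3:**
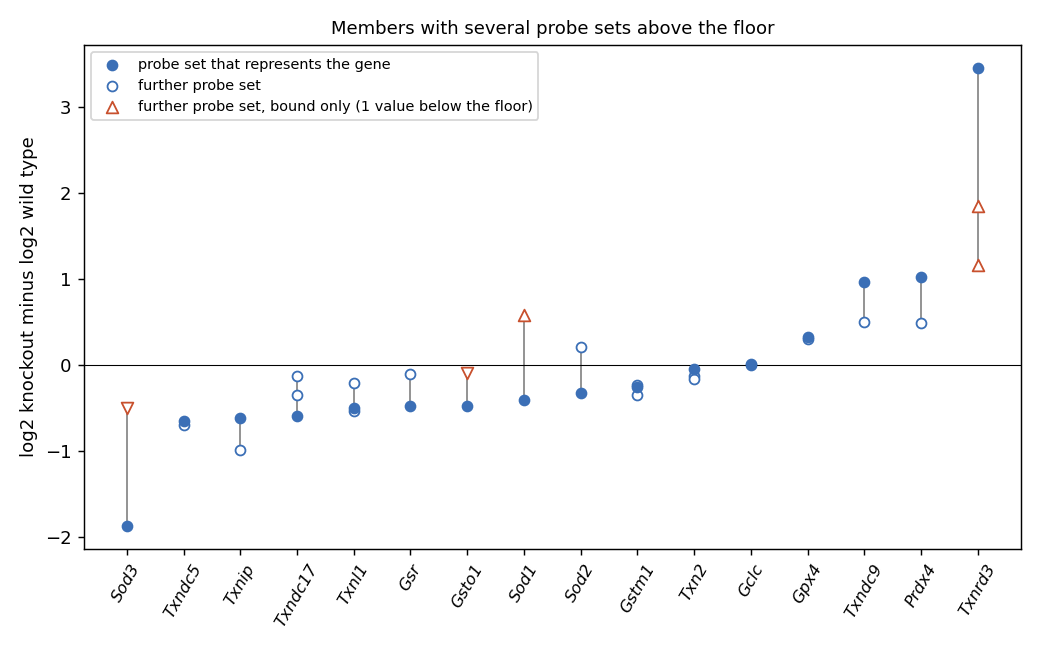
Log2 difference (knockout minus wild type) of each probe set above the floor for the 16 defence genes with several, filled circles marking the probe set that represents the gene and open circles the others. Triangles mark probe sets with 1 value below the floor, drawn with that value set to the floor, so that they are bounds. Sod1 and Sod2 have probe sets on both sides of 0, and Txnrd3 has 1 measured difference (3.46) above 2 bounds.

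Enzymes that feed or surround this system were read from fixed lists. Each list is to be set beside all genes above the floor. Of those, 55.5% were lower, 9.14% at least 2-fold lower and 13.7% at least 2-fold higher. Of 9 NADPH supply genes 7 were lower, 3 at least 2-fold (1 after centring or with the trend removed), with a median of -0.51. Aldh1l1, a folate dehydrogenase, was at 223 in wild-type and 94.7 in knockout fat, Idh1, the cytosolic isocitrate dehydrogenase, at 1582 and 755, and Nnt, the mitochondrial transhydrogenase that is known to differ between mouse strains, at 497 and 244. Me1, malic enzyme, was the highest of the list at 830 and 1244. Of 22 other peroxide and thiol enzymes 17 were lower, with a median of -0.32. Cat, catalase, was at 4467 and 3010, 1.48-fold lower, and Srxn1, which repairs overoxidised peroxiredoxins, at 68.8 and 65.3. The extremes of this list were Pon3, a paraoxonase, at 335 and 155, and Glrx2, mitochondrial glutaredoxin, at 458 and 835.

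Most genes of glutathione supply and turnover were higher, with a small median. Their difference from the defence genes was not tested. Of 10 above the floor 8 were higher, with a median of 0.20 (0.09 to 0.34 over the alternatives). That median is smaller than the usual disagreement of probe sets of a gene (median SD 0.25). Ggct, which acts in glutathione breakdown, was at 50.7 in wild-type and 104 in knockout fat, and Dpep1, a dipeptidase that completes glutathione breakdown outside the cell, at 179 and 81.7. Glo1, which uses glutathione to clear methylglyoxal, was at 807 and 1241. The epididymal Gpx5, placed in this list, was at 7698 and 8173. Slc7a11, the cystine importer, was below the floor.

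NRF2 (gene Nfe2l2) is the transcription factor best known for inducing these enzymes under oxidative stress, and KEAP1 holds it inactive. Nfe2l2 was at 896 in wild-type and 583 in knockout fat, 1.54-fold lower, and Keap1 at 62.2 and 66.3. Of 19 genes of the NRF2 list 13 were lower, with a median of -0.23, close to that of the defence genes. Past 2-fold the list went both ways, with 3 genes higher (2 with dim values set to the floor) and 2 lower. The inducible targets Nqo1 and Hmox1 were below the floor on both arrays. The extremes were Blvrb, biliverdin reductase B, at 127 and 50.8, and Hmox2, the constitutive haem oxygenase, at 304 and 1466. Of 6 superoxide and peroxide sources, with a median of -0.86, 3 were at least 2-fold lower, among them Xdh, xanthine oxidoreductase, at 778 and 186, while Ero1b, an oxidase of the endoplasmic reticulum, was the highest at 100.06 and 373.

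**Figure D4:**
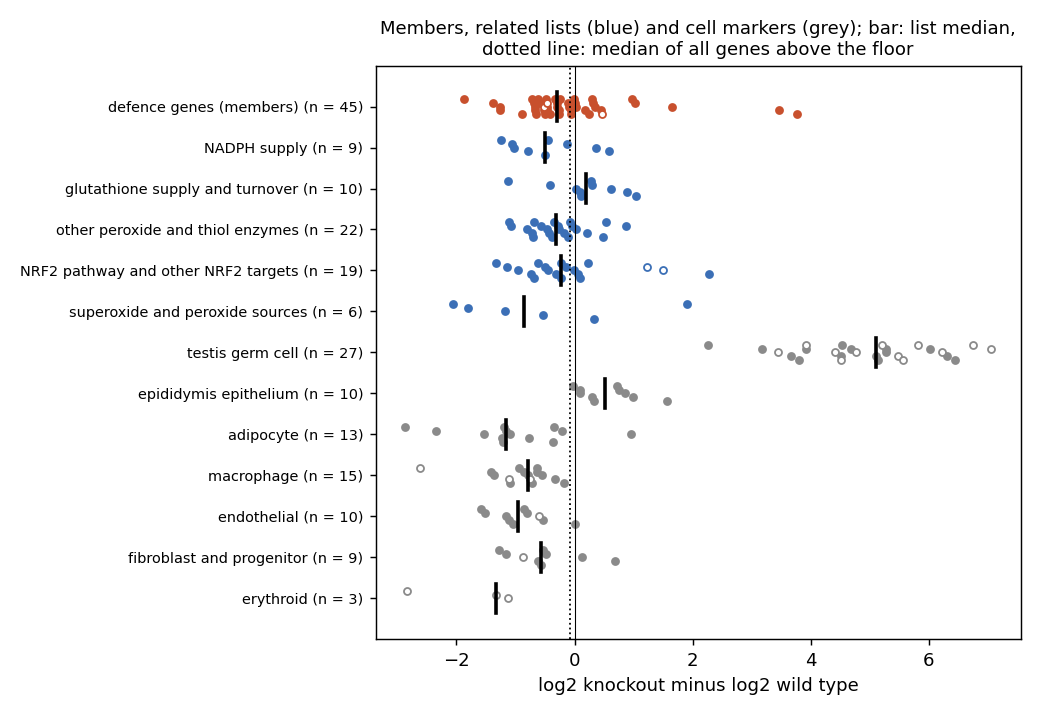
Log2 difference (knockout minus wild type) of each gene above the floor, by list, for the 45 defence genes (red), 5 related lists (blue) and 7 cell marker lists (grey); open points have 1 value below the floor, so that their place is not measured, bars are list medians and the dotted line is the median of all genes (-0.08). The defence genes have a median of -0.30, between the adipocyte markers (-1.16) and the germ cell markers (5.10).

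Since many of these enzymes answer to NRF2, the windows before their start sites were searched for the antioxidant response element core, spelled TGACNNNGC, on both strands of 300 bases (250 before the start and 50 after it; RefSeq, GRCm38.p6). Of the 53 members, 46 matched at least 1 window, 38 of them above the floor; several windows of a gene were read together. The core stood in the windows of 8 of these 38 (21.1%) and in those of 14.0% of the 27025 genes with a window. Members that hold it include Gclm, Mgst1, Txnrd1 and Gstm5. Their 150 bases before the start follow on the gene's strand, with the core in capitals, since they carry the same letters and had unlike differences. Mgst1 has 2 windows and Txnrd1 has 3. The core was in only 1 window of each, which is the one shown.

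Gclm, chr3:122245407-122245556, + strand: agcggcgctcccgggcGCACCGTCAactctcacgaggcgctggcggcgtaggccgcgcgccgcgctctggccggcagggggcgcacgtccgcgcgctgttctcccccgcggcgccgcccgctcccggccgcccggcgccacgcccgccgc
Mgst1, chr6:138140377-138140526, + strand: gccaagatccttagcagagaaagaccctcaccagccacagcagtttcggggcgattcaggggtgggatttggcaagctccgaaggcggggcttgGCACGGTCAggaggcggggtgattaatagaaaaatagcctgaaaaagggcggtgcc
Txnrd1, chr10:82859056-82859205, + strand: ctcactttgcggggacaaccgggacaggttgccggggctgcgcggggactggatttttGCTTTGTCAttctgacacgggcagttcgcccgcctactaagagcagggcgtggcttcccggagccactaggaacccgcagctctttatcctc
Gstm5, chr3:107895704-107895853, + strand: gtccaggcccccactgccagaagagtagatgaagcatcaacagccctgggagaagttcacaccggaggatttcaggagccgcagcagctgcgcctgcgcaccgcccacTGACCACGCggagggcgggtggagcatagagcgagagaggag

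In these windows the core lies on the opposite strand in Gclm, Mgst1 and Txnrd1 and on the gene's strand in Gstm5. The log2 differences of the 4 genes were 0.02, -0.25, -0.68 and 1.64. Over the 8 members with the core the differences ran from -0.68 to 1.64 with a median of -0.13, and over the 30 without it from -1.38 to 3.77 with a median of -0.26, so the ranges overlapped. A match of these letters is a description of the window and not a bound site.

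The stretches before the start of some members near the ends of the range follow, with GC boxes (GGGCGG, both strands) in capitals. They are those of Txndc8 and Txnrd3, which were higher, and of Gstz1 and Mgst3, which were lower. Sod3, the lowest member, matched no window.

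Txndc8, chr4:58009127-58009276, - strand: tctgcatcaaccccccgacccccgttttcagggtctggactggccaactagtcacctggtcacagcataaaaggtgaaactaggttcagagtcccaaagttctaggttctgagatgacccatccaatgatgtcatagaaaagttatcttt
Txnrd3, chr6:89643838-89643987, + strand: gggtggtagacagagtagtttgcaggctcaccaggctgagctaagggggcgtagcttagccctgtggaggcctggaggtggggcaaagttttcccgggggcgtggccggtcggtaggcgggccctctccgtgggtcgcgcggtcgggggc
Gstz1, chr12:87147015-87147164, + strand: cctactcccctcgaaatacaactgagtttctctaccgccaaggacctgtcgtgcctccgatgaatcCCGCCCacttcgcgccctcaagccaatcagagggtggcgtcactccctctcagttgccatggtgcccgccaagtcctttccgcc
Mgst3, chr1:167393842-167393991, - strand: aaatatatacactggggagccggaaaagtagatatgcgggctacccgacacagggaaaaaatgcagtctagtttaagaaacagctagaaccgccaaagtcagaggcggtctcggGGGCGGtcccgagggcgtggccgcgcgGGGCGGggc

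The GC box occurred in the 300-base windows of 28 of the 38 members above the floor (73.7%) and of 38.2% of all genes with a window; no comparison with promoters of genes of like expression was made. In the stretches shown it is found at 2 places in Mgst3 and 1 in Gstz1, and not in those of Txndc8 and Txnrd3. The window of Txndc8 has one farther out, 226 bases before the start. The GC box was chosen for the search after the values were seen, and the genes shown were picked by their values. Whether the box goes with the direction of the difference was not tested. Gstt1, at -1.26, had no box in its window, and the higher Gstm5 and Prdx4 had the box. Members with the box had a median difference of -0.31 and those without it 0.24 (10 genes), with ranges of -1.38 to 3.77 and -1.26 to 3.46 that overlapped. The core of the cAMP response element, TGACG, which can overlap the antioxidant core, was in the windows of 14 of the 38 members (36.8%) and of 23.0% of all genes, and the TATA box TATAAA in those of 7 (18.4%) and of 15.7%, both strands read. The PPAR direct repeat, AGGTCA written 2 times with 1 base between, was in no member window and in 13 of 32851 windows in all, which says only that these letters are not in these windows.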

How the data were processed

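Total RNA (TRIzol) of 5 animals per genotype was pooled, labelled with biotin and put on 1 Affymetrix array per pool, per the labels. Values were deposited as intensities of probe sets, summarised by GCRMA 2.20 according to the submitters' processing notes; they are on a linear scale, so log2 was taken. GCRMA draws dim probe sets together and equalises the distributions of arrays processed together; whether these 2 were is not stated.

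Of 22690 probe sets, 20393 name 1 gene (symbols updated to GRCm38.p6 by Entrez identifier for 20364). A gene is its probe set with the highest mean among those at an intensity of 32 or more on at least 1 array; a fold with a value below that is a bound. With 1 array a group no test was possible. Every member above the floor could be named, with the extremes and set genes of related lists. Alternatives changed the floor, scaling, probe set choice and shared-sequence probe sets. Members and lists were chosen with earlier results of these data known; the removal of the sperm list and the grouping by compartment and selenium, and motifs other than the antioxidant core, after the values were seen. Counting was tested on simulated data (Python 3.11.15, pandas 2.3.3, statsmodels 0.14.6).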

Additional observations from a re-analysis of the deposited data

How the results depend on the processing

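Across the settings tried (floors of log2 4 and 6, no floor, dim values set to the floor, centring, removal of the intensity trend, the mean of probe sets, no probe sets of shared sequence, members by updated symbol) the median of the defence genes ran from -0.30 to -0.19, 3 to 5 members were at least 2-fold higher and 4 at least 2-fold lower. Without the sperm and germ cell list, an alternative chosen after seeing the data, 1 was higher. Over the 8 alternatives for single genes, the 8 members past 2-fold kept their sign, and 39 of 45 members did in every alternative that kept them (4 of these 39 did not pass a floor of log2 6); the others were Gpx3, Gsta3, Gstp1, Sod1, Txn2 and Txndc16. Txndc9 passed 2-fold with centring (1.05) and with the trend removed (1.10). The counts of the related lists moved more; the cause was not tested. Of NADPH supply genes, 1 was at least 2-fold higher with a floor of log2 4 or with none (fewer genes are left out there), and 1 lower with centring or the trend removed. The superoxide and peroxide sources, at -0.86 as reported, had a median of -0.60 with a floor of log2 4, -1.19 with log2 6 and -0.54 with no floor. Of other peroxide and thiol enzymes, 1 was at least 2-fold lower with centring, and with the trend removed 0 were lower and 1 higher. With the trend removed, 2 glutathione supply genes were at least 2-fold higher and 0 lower, and 1 NRF2 list gene was lower. No paired analysis was possible because each genotype has 1 array. Values near the floor are set mostly by background.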

Other observations

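Members were also grouped by cell compartment, a grouping made after the values were seen and not tested. The 3 members above the floor that were grouped as mitochondrial were Prdx3, Sod2 and Txn2. They differed by -0.51 to -0.05 on the log2 scale at the probe sets that represent them. The 5 grouped under the endoplasmic reticulum were Gpx8, Prdx4, Txndc5, Txndc12 and Txndc16. They had no common direction, from Txndc5 at -0.65 to Prdx4 at 1.02. The membrane transferases Mgst1 (-0.25) and Mgst3 (-1.38) were left out of both groups, although Mgst1 belongs to both compartments. The 2 secreted members were apart, Gpx3 at -0.07 and Sod3 at -1.87.

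Several members are selenoproteins, enzymes that carry selenocysteine. The 5 above the floor ranged from Gpx1 at -0.68 to Txnrd3 at 3.46, with a median of -0.07. A further 5 selenoproteins were taken from the list of other peroxide and thiol enzymes, and selenoproteins outside the lists were not read. All 5 were lower, with a median of -0.72. In the list they came from 17 of 22 genes were lower, and 55.5% of all genes were lower. Selenop, the selenium carrier, was at 4184 in wild-type and 3023 in knockout fat, Selenow at 1468 and 892, and Msrb1, a methionine sulphoxide reductase, at 1222 and 578. This grouping too was made after the values were seen.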
